A study of Homo sapiens with 3 samples.

Results

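The genes of MHC class I and peptide loading were HLA-B, HLA-C, HLA-E and HLA-F, which encode class I heavy chains, B2M, which encodes their light chain, TAP1, TAP2 and TAPBP of the peptide loading complex, and NLRC5, which encodes a transcriptional activator of the pathway. The members were taken by name, 9 of 26562 genes in the deposited tables, and each gene's FPKM (fragments of transcript scaled to transcript length and to the library's mapped fragments) was summed over its entries. Of these, 6 had a mean of at least 1 FPKM over the libraries, as did 3933 genes in all, and are called measured here. Bounds given with a value are the deposited confidence bounds, combined over a gene's entries. They cover counting error and the assignment of fragments among transcripts, not the spread between libraries. A number of fragments given for a value is the count whose sampling error would match its bounds. Where a gene has several transcripts, it need not be the number counted.

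The cells were MTAC-P, a line derived from the EGFR-mutant lung adenocarcinoma line PC9 and resistant to EGFR tyrosine kinase inhibitors. Libraries labelled shBCAT1 1 and shBCAT1 2 carried short hairpins against BCAT1, the cytosolic branched-chain aminotransferase, and 1 control library carried a hairpin against luciferase. The culture medium was DMEM with serum for all, and the libraries were made from total RNA. The labels do not say whether the shBCAT1 libraries share a hairpin or came from separate cultures, so the p-values speak only for the spread of these libraries, and that spread may be technical. The series' design text speaks of triplicates, whereas 2 shBCAT1 libraries and 1 control library were analysed here.

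A class I molecule is a heavy chain bound to beta-2-microglobulin and a short peptide, and it shows fragments of a cell's own proteins to CD8 T cells and natural killer cells. Proteasomes cut the peptides, the TAP1 and TAP2 transporter carries them into the endoplasmic reticulum, and tapasin, the product of TAPBP, holds the empty heavy chain beside the transporter until a peptide fits. NLRC5 raises the transcription of these genes, largely through promoter boxes called S, X and Y, and interferons act on them through IRF and other factors. Loss of class I expression is one of the known routes by which lung tumours avoid T cells.

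BCAT1, the target of the hairpins, was not below the control in either shBCAT1 library. It stood at 1.05 FPKM (bounds 0.835 to 1.27) in the first of them, labelled shBCAT1 1, and 0.241 (0.158 to 0.325) in the one labelled shBCAT1 2, against 0.213 (0.129 to 0.297) in the control. The library labelled shBCAT1 1 was above the control with bounds apart, which goes against its label. Every comparison here is therefore between libraries as labelled. Deposited FPKM summed to 44313 and 46145 in the libraries labelled shBCAT1 1 and 2, against 53898 in the control. Epithelial markers were present at 1 FPKM or more on average for 7 of 7 genes, with sums of 810 and 1114 FPKM in the shBCAT1 libraries and 968 in the control. Among them CLDN4, a tight junction claudin, was at 24.5 and 22.2 FPKM against 30.7. KRT7, a simple epithelial keratin, was at 262 and 305 against 320. Both had bounds apart downward in each shBCAT1 library, beside 4.14% of genes. KRT8 was at 256 and 410 FPKM against 295, and KRT18 at 175 and 262 against 213. These 2 were apart downward in shBCAT1 1, beside 7.55% of genes, and upward in shBCAT1 2, beside 7.3%. Of the 7 markers, 6 were below the control in shBCAT1 1 and 5 above it in shBCAT1 2. Of 5 lung adenocarcinoma and alveolar markers none reached a mean of 1 FPKM, their sums were 0.0571 and 0.103 FPKM against 0.324 in the control, and SFTPC and SFTA3 were listed at 0 throughout. Leukocyte markers, which matter here because blood cells express class I strongly, summed to 3.79 and 3.82 FPKM against 3.68 in the control. All but a small part of that was CD68, and PTPRC, CD3D, CD2, MS4A1 and NKG7 of the 11 were listed at 0 in each library. Fibroblast markers (0 of 6 measured) summed to 0.259 and 0.203 FPKM against 0.128, and endothelial markers (0 of 4) to 0.221 and 0.120 against 0.197.

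The proximal promoters are shown first because they carry the elements through which the members are known to be switched together. The RefSeq table on GRCh38.p14 held promoters for 7 of the 9 members, with no entry for HLA-E or NLRC5. The 180 bases before the start annotated there are printed 5′ to 3′ on the gene's own strand, from the reference haplotype and not from MTAC-P cells. These starts differ from those of the deposited loci given below. The printed windows of TAP1 and TAPBP lie inside their loci. Those of HLA-B, HLA-C, HLA-F, B2M and TAP2 overlap the upstream end of theirs. Capitals mark matches to the kB consensus of NF-kB, to AANNGAAA, the core bound by IRF factors, to the longer interferon-response form, GAAA repeated after any 2 bases, which holds that core, and to TGACG followed by ATTGG after 15 to 25 bases, a spacing of X and Y boxes. Both strands were searched, and the spaced pair was chosen after the sequences had been read.
HLA-B, chr6:31357180-31357359, minus strand: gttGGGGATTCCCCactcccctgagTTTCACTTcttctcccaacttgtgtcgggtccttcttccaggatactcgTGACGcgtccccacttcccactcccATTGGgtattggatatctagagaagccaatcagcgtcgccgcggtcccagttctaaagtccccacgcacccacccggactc
HLA-C, chr6:31272093-31272272, minus strand: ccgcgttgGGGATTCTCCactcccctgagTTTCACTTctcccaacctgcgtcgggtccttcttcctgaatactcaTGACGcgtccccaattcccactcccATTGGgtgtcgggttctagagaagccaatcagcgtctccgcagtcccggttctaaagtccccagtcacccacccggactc
HLA-F, chr6:29723254-29723433, plus strand: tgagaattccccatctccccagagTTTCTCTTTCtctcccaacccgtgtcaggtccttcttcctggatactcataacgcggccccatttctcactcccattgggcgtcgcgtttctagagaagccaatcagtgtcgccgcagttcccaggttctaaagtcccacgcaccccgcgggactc
B2M, chr15:44711337-44711516, plus strand: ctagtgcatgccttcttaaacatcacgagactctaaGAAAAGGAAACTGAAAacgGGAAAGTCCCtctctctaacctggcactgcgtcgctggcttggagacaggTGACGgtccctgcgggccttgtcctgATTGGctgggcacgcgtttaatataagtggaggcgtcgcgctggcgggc
TAP1, chr6:32853705-32853884, minus strand: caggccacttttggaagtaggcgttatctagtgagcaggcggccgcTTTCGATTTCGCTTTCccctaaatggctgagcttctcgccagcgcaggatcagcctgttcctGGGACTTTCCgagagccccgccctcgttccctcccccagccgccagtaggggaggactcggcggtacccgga
TAP2, chr6:32838740-32838919, minus strand: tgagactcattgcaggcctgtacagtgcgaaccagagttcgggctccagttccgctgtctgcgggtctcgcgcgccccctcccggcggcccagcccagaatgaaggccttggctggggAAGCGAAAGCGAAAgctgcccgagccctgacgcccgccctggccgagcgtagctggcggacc
TAPBP, chr6:33314079-33314258, minus strand: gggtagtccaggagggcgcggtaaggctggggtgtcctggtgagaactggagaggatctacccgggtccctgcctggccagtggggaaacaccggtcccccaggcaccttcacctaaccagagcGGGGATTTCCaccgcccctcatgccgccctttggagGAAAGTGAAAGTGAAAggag

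In the 250 bases before the start, AANNGAAA was found in 7 of 7 members, beside 20.3% of all 35116 promoter windows of that length. The longer form was found in 5 of them, HLA-F, B2M, TAP1, TAP2 and TAPBP, beside 3.02%. A kB match lay in HLA-B, HLA-C, B2M, TAP1 and TAPBP, beside 9.96%. The spaced TGACG and ATTGG pair was present in HLA-B, HLA-C and B2M, beside 0.407%, and began at positions -106, -105 and -75 counted from the start. A further annotated start of TAP1 held none of these matches and is not printed. These are matches of letters, not measured binding.

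Among the heavy chains, HLA-C (chromosome 6, 31268749 to 31272136, hg38), which presents peptides and is a main ligand of killer cell receptors, was the most abundant member in all 3 libraries. It stood at 10.0 FPKM (bounds 8.66 to 11.4) in the library labelled shBCAT1 1 and 11.7 (10.3 to 13.1) in that labelled shBCAT1 2, against 13.6 (12.0 to 15.2) in the control. Both shBCAT1 values were thus below the control, and the bounds lay apart in the library labelled shBCAT1 1 and overlapped in the other. The spread implied by the bounds is that of 215, 265 and 283 counted fragments in these libraries, so HLA-C is the member with the best counting precision. The shBCAT1 mean was 10.9 ± 1.2 FPKM (SD, n = 2). On the log2(FPKM + 1) scale the fitted difference was -0.30 ± 0.21 (SE; limma adjusted p 0.805). It was -0.09 with quantile normalization and -0.19 with the trend of differences on transcript length removed. In bulk RNA, fewer cells with a transcript and less of it per cell cannot be told apart.

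HLA-B (31353872 to 31357212 on the same chromosome), a highly polymorphic presenter of peptides to CD8 T cells, was far lower. It stood at 0.660 FPKM (bounds 0.307 to 1.01) and 1.22 (0.752 to 1.68) in the libraries labelled shBCAT1 1 and 2, and at 1.19 (0.709 to 1.67) in the control. The library labelled shBCAT1 1 was lower than the control and the library labelled shBCAT1 2 level with it, and all bounds overlapped. The bounds correspond to 14, 27.3 and 24.5 fragments. The fitted difference was -0.19 ± 0.25 (SE; limma adjusted p 0.875), and it was 0.02 when the library labelled shBCAT1 1 was left out and -0.08 with the length trend removed. HLA-C exceeded HLA-B by 15.2, 9.60 and 11.4 times in the shBCAT1 1, shBCAT1 2 and control libraries. Both promoters held the kB, IRF core and paired matches shown above, and the cause of the ratio was not tested. The 5 alternate-sequence entries of HLA-B and the 6 of HLA-C were listed at 0, so the ratios rest on the reference sequence. How far alleles that differ from it change these levels was not tested.

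HLA-E (30489406 to 30494205), a nearly invariant heavy chain that shows leader peptides of other class I chains to natural killer cells, stood at 2.29 FPKM (bounds 1.80 to 2.78) in the library labelled shBCAT1 1 and 2.18 (1.72 to 2.65) in that labelled shBCAT1 2. The control was at 3.11 FPKM (2.53 to 3.69). The shBCAT1 libraries were close to each other and below the control, with upper bounds just past the control's lower bound. The shBCAT1 mean was 2.24 ± 0.074 FPKM (SD, n = 2), 0.719 times the control, and the fitted difference was -0.34 ± 0.18 (SE; limma adjusted p 0.805). Its value lay at the 17.1 percentile of the fitted differences of all 3933 genes.

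HLA-F (29723340 to 29727296), a heavy chain with restricted expression that can reach the surface without peptide, was listed at 0 in both shBCAT1 libraries and at 0.165 FPKM (bounds 0 to 0.446) in the control. That control value is as wide as 1.38 fragments, so it is at the limit of what these libraries can show. In the limma fit with no minimum level its adjusted p was 0.572. The heavy chains HLA-B, HLA-C, HLA-E and HLA-F together summed to 13.0 and 15.1 FPKM in the libraries labelled shBCAT1 1 and 2, against 18.1 in the control. HLA-C made up 77.3%, 77.5% and 75.3% of that sum in the same order.

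B2M (chromosome 15, 44711487 to 44718159), whose product every class I heavy chain needs to fold and reach the surface, stood at 4.69 FPKM (bounds 3.45 to 5.93) and 4.51 (3.33 to 5.70) in the libraries labelled shBCAT1 1 and 2. In the control it was at 5.59 (4.22 to 6.97). All 3 bounds overlapped, and the bounds rest on 57.0, 58.0 and 66.0 fragments. The fitted difference was -0.24 ± 0.19 (SE; limma adjusted p 0.843). The B2M transcript is short, at 943 bases, and with the trend of differences on transcript length removed its difference was 0.02, so no direction can be given for it. B2M was 0.467, 0.386 and 0.411 times HLA-C on the FPKM scale in the shBCAT1 1, shBCAT1 2 and control libraries. Between 1003 and 1159 genes per library stood above B2M, and between 445 and 495 above HLA-C.

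**Figure D1:**
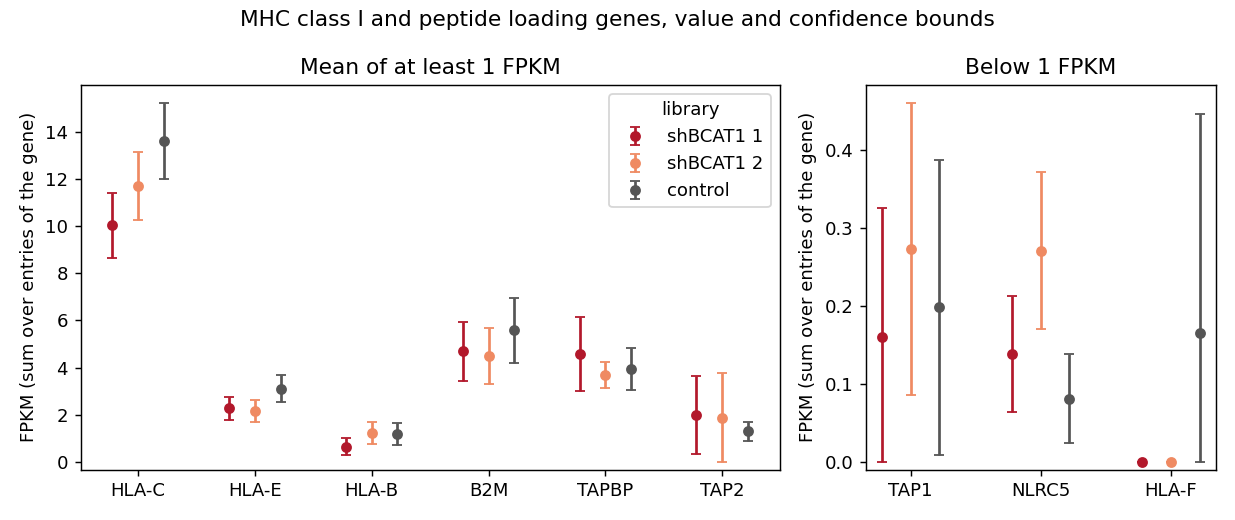
FPKM of the 9 members in each library (points, with lines from the lower to the upper confidence bound). The left panel holds members with a mean of at least 1 FPKM and the right panel those below it, on separate linear axes. HLA-C is highest in every library, at 10.0, 11.7 and 13.6 FPKM, and HLA-F is listed at 0 in both shBCAT1 libraries.

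Among the members TAPBP, TAP1 and TAP2, TAPBP (33299695 to 33314387), the tapasin gene, had the highest value in each library. It stood at 4.58 FPKM (bounds 3.02 to 6.15) and 3.69 (3.15 to 4.23) in the libraries labelled shBCAT1 1 and 2, against 3.95 (3.07 to 4.83) in the control. One library was above the control and the other below it, with every bound overlapping. The fitted difference was 0.05 ± 0.22 (SE), the limma adjusted p was 0.962, and the difference was -0.08 without the library labelled shBCAT1 1.

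TAP1 (32845209 to 32853971) and TAP2 (32821833 to 32838823) encode the paired subunits of the peptide transporter, and neither works without its partner. TAP1 was at 0.161 FPKM (bounds 0 to 0.326) and 0.273 (0.0858 to 0.461) in the libraries labelled shBCAT1 1 and 2, against 0.199 (0.00893 to 0.388) in the control. The bounds match 3.75, 8.5 and 4.39 fragments and overlapped throughout. The log2(FPKM + 1) difference was -0.05 in the library labelled shBCAT1 1 and 0.09 in that labelled shBCAT1 2. The TAP1 transcript NM_001292022 held 45.6% of the gene's FPKM in the library labelled shBCAT1 1, nearly all of it in that labelled shBCAT1 2 and 54.7% in the control. In the fit with no minimum the difference of TAP1 was 0.02 ± 0.10 (SE; limma adjusted p 0.970).

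Of the 6 members with a mean of at least 1 FPKM, TAP2 alone was above the control in both shBCAT1 libraries. It summed to 1.99 FPKM (bounds 0.341 to 3.63) in the library labelled shBCAT1 1 and 1.87 (0 to 3.76) in that labelled shBCAT1 2, against 1.31 (0.906 to 1.71) in the control. The bounds overlapped, and those of the shBCAT1 libraries are wide, matching 5.83 and 3.91 fragments against 42.3 in the control. Of its 3 primary transcripts 1 carried the status LOWDATA, the Cufflinks mark for too little or too complex data, in each library. The fitted difference was 0.34 ± 0.18 (SE; limma adjusted p 0.802), and lay at the 94.4 percentile of all genes. TAP2 exceeded TAP1 by 12.4, 6.83 and 6.59 times on the FPKM scale in the shBCAT1 1, shBCAT1 2 and control libraries. Their bounds overlapped in the library labelled shBCAT1 2, and the lower bound of TAP1 was 0 in that labelled shBCAT1 1, so these ratios are loosely set.

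The TAP2 value was divided among its transcripts in different ways. NM_018833, whose locus on the minus strand reaches farthest downstream (to 32821833), was at 1.49 FPKM (bounds 1.04 to 1.95) and 1.22 (0.802 to 1.63) in the libraries labelled shBCAT1 1 and 2, against 0.620 (0.288 to 0.952) in the control. It was higher than the control in both, with bounds apart in the library labelled shBCAT1 1, beside 3.72% of 35708 transcript entries higher in the same way there. NM_001290043 was at or under 0.000137 FPKM in both shBCAT1 libraries (upper bounds 0.0235 and 0.0222), against 0.688 (0.466 to 0.909) in the control, with bounds apart in both, beside 2.33% of entries. NM_000544 had the opposite pattern, at 0.494 (0 to 2.08) and 0.651 FPKM (0 to 2.49) against 0.000188 (0 to 0.0519), with the LOWDATA status.

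The last 2 TAP2 transcripts share the downstream end of their locus (32825410) and have upstream ends at 32838770 and 32838823, with matched lengths of 5676 and 5684 bases. Their sum was 0.494 and 0.651 FPKM in the libraries labelled shBCAT1 1 and 2, against 0.688 in the control. The sum was closer together in the 3 libraries than either transcript alone. Together they held 24.8% and 34.9% of TAP2 in these libraries and 52.6% in the control. These transcripts were singled out after their values were seen. Of the 36-base windows along the longest matched TAP2 transcript, 35.9% also occur in GENCODE transcripts annotated to another gene, so part of its value is uncertain. With 75-base windows the share was 35.5%. That transcript has 5684 bases, and the share of the shorter NM_018833 was not computed.

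**Figure D2:**
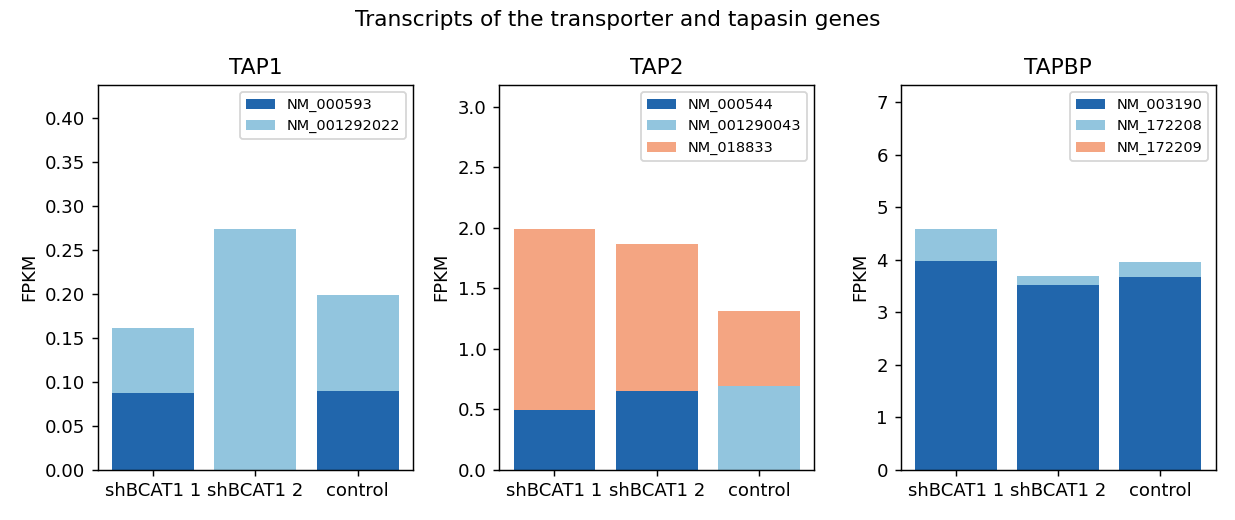
FPKM of each RefSeq transcript of TAP1, TAP2 and TAPBP, stacked per library on linear axes that start at 0 and differ between panels. The TAP2 bars of the shBCAT1 libraries consist of NM_018833 and NM_000544, whereas the control bar consists of NM_018833 and NM_001290043.

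NLRC5 (chromosome 16, 57017074 to 57083524), the class I transactivator, had low values that differed between libraries. It was at 0.139 FPKM (bounds 0.0645 to 0.213) in the library labelled shBCAT1 1 and 0.271 (0.171 to 0.372) in that labelled shBCAT1 2, against 0.0816 (0.0239 to 0.139) in the control. Both were above the control, by 1.70 and 3.33 times, and the bounds lay apart in the library labelled shBCAT1 2, as they did upward for 3.25% of 16514 genes above 0. The values rest on 14, 29 and 8 fragments. In the fit with no minimum its difference was 0.15 ± 0.10 (SE; limma adjusted p 0.862). Of the heavy chain genes and B2M, which NLRC5 is known to activate, HLA-B was level with the control in the library labelled shBCAT1 2. HLA-C, HLA-E, HLA-F and B2M were below the control there, with all bounds overlapping. A link between these levels and NLRC5 was not tested.

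Of the 6 members with a mean of at least 1 FPKM, 0 passed an adjusted p of 0.05 by limma in either direction, beside 0.356% of the 3933 genes tested, and 0 had an unadjusted p under 0.05, beside 0.636% of genes higher and 4.86% lower. In the fit with no minimum, where 0.0% of 16578 genes passed, TAP1, NLRC5 and HLA-F did not either, though HLA-F had an unadjusted p of 0.00307 with both shBCAT1 values at 0. At an unadjusted p under 0.05, 4.84% of the genes in that fit were lower and 1.62% higher. With bounds apart from the control in both shBCAT1 libraries, 0 of 6 members were higher, beside 1.27% of genes, and 0 lower, beside 4.14%. Bounds apart downward in the library labelled shBCAT1 1 alone were found for HLA-C, beside 7.55% of genes, and upward for 0 of 6 members, beside 1.65%. In the library labelled shBCAT1 2 alone, 0 of 6 were apart upward, beside 7.3%, and 0 downward, beside 7.6%. Both shBCAT1 libraries are compared with the same control, so their differences are not independent. Below the control were 4 of 6 members in the library labelled shBCAT1 1 (HLA-B, HLA-C, HLA-E and B2M), beside 68.5% of all genes, and 4 of 6 in the library labelled shBCAT1 2 (HLA-C, HLA-E, B2M and TAPBP), beside 48.9%. The other 2 were above it in each, beside 31.2% and 50.9% of genes. The median fitted difference of these 6 was -0.21, beside -0.06 for all genes tested. HLA-C, at -0.30, stood beside a median of -0.22 among the 1050 genes averaging 5 FPKM or more.

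**Figure D3:**
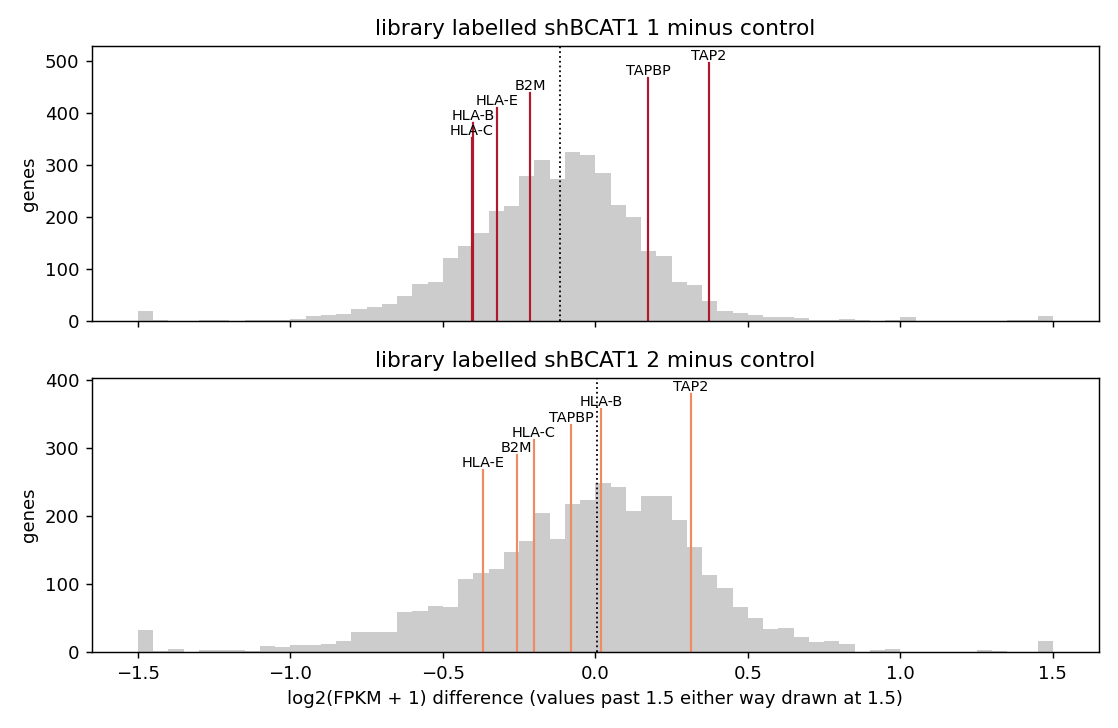
Difference in log2(FPKM + 1) of each shBCAT1 library from the control for 3933 genes (grey bars), with coloured lines at the 6 members with a mean of at least 1 FPKM and a dotted line at the median of all genes. The members lie inside the range of the other genes, from -0.41 for HLA-C to 0.37 for TAP2 in the library labelled shBCAT1 1.

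The order of the levels was shared in its upper part. HLA-C stood first in each library with bounds apart from B2M, which came next. B2M and TAPBP, the next in line, overlapped in all 3 libraries. TAPBP and HLA-E were apart in both shBCAT1 libraries and overlapped in the control, while HLA-E and TAP2 overlapped in both shBCAT1 libraries and were apart in the control. TAP2 and HLA-B overlapped in each library. TAP1, NLRC5 and HLA-F filled the lowest places.

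The tables also list alternate sequences of the MHC region, on which class I genes are repeated because their alleles differ between haplotypes. The members had 16 entries on primary chromosomes and 83 on alternate sequences, and all 83 were listed at 0 in each library, with bounds of 0. The same held for all 5930 alternate and unplaced entries of the tables, 2460 of them on alternate haplotypes of chromosome 6. Summed and primary values of the members are therefore equal. Of the 36-base windows of the matched transcripts, 15.1% of HLA-C, 10.1% of HLA-B, 9.04% of HLA-E and 4.88% of HLA-F also occur in another gene, so reads of that length could be split between genes. With 75-base windows these shares were 1.98%, 0.0%, 2.02% and 0.0%. For B2M and NLRC5 they were 0.0% at both lengths. The read length is not given in the sources used here.

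Other class I-like genes, which include ligands of natural killer cell receptors, were scarce. Of 12 in the list, 1 had a mean of at least 1 FPKM, the stress ligand MICA, at 1.62 and 1.94 FPKM in the libraries labelled shBCAT1 1 and 2, against 1.67 in the control. Its status was LOWDATA, and its bounds were 0 to 5.45 and 0 to 5.97 FPKM in the shBCAT1 libraries and 0 to 5.08 in the control. Its fitted difference was 0.06 ± 0.19 (SE; limma adjusted p 0.949). HLA-G, a heavy chain of the placenta, was at 0.0117 FPKM and listed at 0 in the shBCAT1 libraries, against 0.0967 in the control. MHC class II genes were lower still: 0 of 12 reached the minimum, 8 were listed at 0 in every library, HLA-DRA and HLA-DRB1 among them, and the highest single value was 0.199 FPKM, for HLA-DMA.

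Among the endoplasmic reticulum proteins that serve class I loading, CALR and BCAP31 stood above HLA-C in each library and the others named here below it. CALR, the calreticulin gene, was at 31.1 and 37.2 FPKM in the libraries labelled shBCAT1 1 and 2, against 36.3 in the control. Its bounds lay apart downward in the library labelled shBCAT1 1 alone, beside 7.55% of genes. PDIA3, the disulfide isomerase bound to tapasin, was at 2.10 and 2.46 against 1.99, and BCAP31, an export receptor for class I molecules, at 29.9 and 30.8 against 36.6. In the library labelled shBCAT1 1 the bounds of BCAP31, 3.08 to 56.7, span those of HLA-C, so their order there is not set. Of 11 genes in this list 6 were measured above the minimum, 0 passed the test in either direction by limma (smallest adjusted p 0.805), and the median fitted difference was -0.01 beside -0.06 for all genes. The trimming peptidases ERAP1 and ERAP2, which cut peptides to their final length, were at 0.0556 and 0.0875 FPKM against 0.0573, and at 0.192 and 0.331 against 0.203.

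Of the immunoproteasome and its PA28 activator, 4 of 6 genes were measured and 0 passed the test in either direction by limma (smallest adjusted p 0.802). PSME2, the beta subunit of PA28, was at 13.1 FPKM (bounds 10.8 to 15.4) and 13.0 (10.7 to 15.2) in the libraries labelled shBCAT1 1 and 2, against 18.5 (15.7 to 21.3) in the control. Its bounds lay apart downward in both libraries, beside 4.14% of genes, and its fitted difference was -0.47 ± 0.18 (SE), with an unadjusted p of 0.0633. Its partner PSME1 was at 7.33 and 7.17 FPKM against 8.84, with a difference of -0.25. The interferon-inducible catalytic subunits PSMB8 and PSMB9, encoded beside TAP1 and TAP2, were at 1.40 and 2.05 against 1.70 FPKM and at 0.382 and 0.433 against 0.315. The constitutive catalytic subunits were higher in level, with PSMB6 at 14.9 and 15.2 against 17.4 FPKM and PSMB5 at 5.28 and 5.25 against 6.22. All 3 of these were measured and 0 passed by limma. Their median difference was -0.20, beside -0.22 among all genes averaging 5 FPKM or more, as these do.

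Regulators of class I transcription were mostly below 1 FPKM. Of 16 listed, 3 were measured and 0 passed the adjusted test by limma in either direction. RFXANK, a subunit of the RFX complex that binds the X box together with NLRC5, was at 2.20 FPKM and 2.19 in the libraries labelled shBCAT1 1 and 2, against 3.80 in the control, and all bounds overlapped. Its fitted difference was -0.59 ± 0.18 (SE; limma adjusted p 0.802, unadjusted p 0.0338). At an unadjusted p under 0.05, 4.86% of genes were lower. NFYC, a subunit of the factor that binds the Y box, was at 1.02 and 1.40 FPKM against 1.45, a difference of -0.15. RELA, the NF-kB subunit, was at 1.87 and 1.85 FPKM against 1.58, a difference of 0.15. IRF1, a transcription factor induced by interferon gamma, was at 0.106 and 0.0590 FPKM against 0.0495.

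Interferon-stimulated genes were mostly below 1 FPKM. Of 34 genes 4 were measured, 6 were listed at 0 in each library, CXCL10 and GBP1 among them, and 0 passed by limma in either direction (smallest adjusted p 0.802). The median fitted difference of the measured 4 was -0.25 beside -0.06 for all genes. Among genes averaging 5 FPKM or more, as BST2 and IFITM3 do, the median was -0.22. BST2, a membrane tether of virions, was at 11.9 and 11.4 FPKM in the libraries labelled shBCAT1 1 and 2, against 15.2 in the control, ISG15, a ubiquitin-like modifier, at 1.53 and 2.50 against 3.01, and IFI35 at 1.05 and 1.28 against 1.40. IFITM3, a restriction factor of virus entry, was at 13.3 and 11.9 FPKM against 12.9. Among 17 genes of interferon signalling 1 was measured, IRF3, at 9.63 and 11.8 FPKM against 12.8, with a limma adjusted p of 0.846.

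Of 6 checkpoint and natural killer cell ligands, 4 were measured and 0 passed by limma in either direction. CD47, which holds off phagocytes, was at 1.18 and 0.541 FPKM in the libraries labelled shBCAT1 1 and 2, against 1.74 in the control. Its bounds lay apart downward in the library labelled shBCAT1 2 alone, beside 7.6% of genes. Its fitted difference was -0.58 ± 0.28 (SE; limma adjusted p 0.802). NECTIN2 and PVR, ligands of receptors on T and natural killer cells, were at 4.54 and 4.21 against 5.38 FPKM and at 1.07 and 1.71 against 1.02. CD276, an immune checkpoint ligand, was at 1.31 and 1.5 FPKM against 1.13. CD274, which encodes PD-L1, was listed at 0 in both shBCAT1 libraries and at 0.0212 FPKM in the control.

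**Figure D4:**
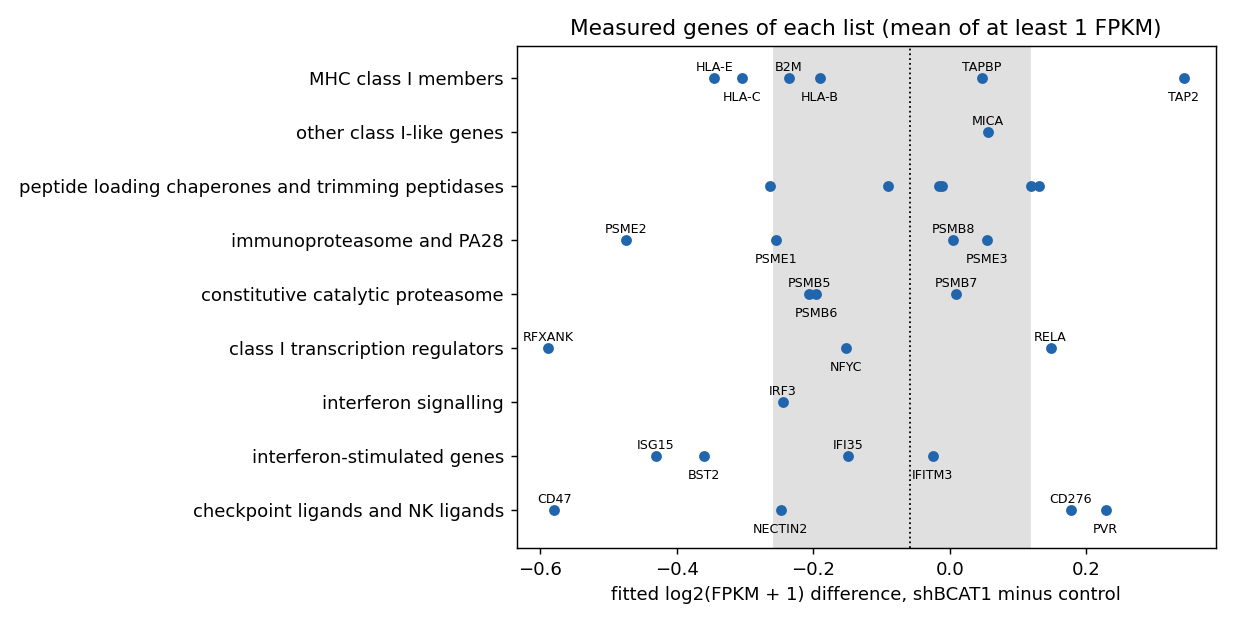
Fitted log2(FPKM + 1) difference (shBCAT1 minus control) of each gene averaging 1 FPKM or more, by list, with names where a list has few. The grey band spans the middle of all 3933 genes, from the 25 to the 75 percentile (-0.26 to 0.12), and the dotted line is their median of -0.06. PSME2, RFXANK and CD47 lie farthest to the left and TAP2 farthest to the right.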

How the data were processed

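The authors deposited FPKM per RefSeq transcript and locus with confidence bounds and a status, per the file headers, made with Trim Galore, TopHat and Cufflinks on hg38, per the submitters' processing notes. Their versions and settings, the annotation and the strand are not stated in these sources. Accessions were named from the RefSeq table on GRCh38.p14 (49281 of 50337) and GENCODE release 29 (645), and 411 kept no name. FPKM was summed per gene. Bounds were taken as 2 SDs and combined as a root sum of squares; the square of value over SD is given as fragments. The bounds cover counting and assignment error, not the spread between libraries. Genes with a FAIL or HIDATA entry were left out, 29 in all; genes marked LOWDATA were kept, TAP2 and HLA-F among them.

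limma 3.58.1 (R 4.3.3) was fitted to log2(FPKM + 1) with an intensity trend where a gene averaged 1 FPKM or more, two-sided, Benjamini-Hochberg adjusted over all of them. A difference on this scale understates changes of low genes. The control has 1 library and is assumed to vary like the shBCAT1 libraries, which leave 1 residual degree of freedom. Members under the minimum come from a fit without one. The fit was tested on simulated data. Members and lists were chosen with earlier results of these data known. Named genes are all members, and per pathway list (not the cell type markers) up to 4 genes with the largest smaller difference of one sign in both shBCAT1 libraries, besides genes given for their level or chosen after their values were seen. Python 3.11.15, pandas 2.3.3 and matplotlib 3.10.9 were used. The values of 1 listed gene are not reported here.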

Additional observations from a re-analysis of the deposited data

How the results depend on the processing

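The 6 members averaging 1 FPKM or more were tested again under the alternatives, and none passed an adjusted p of 0.05. At a minimum of 5 FPKM HLA-C alone was tested. TAPBP, for which no transcript length was matched, was not tested with the length trend removed. TAP1, NLRC5 and HLA-F have a test in the fit without a minimum alone. Over these fits adjusted p values of members ran from 0.531 to 0.989. Of 77 member values under alternatives, 73 kept their direction. Many of these could not turn. Another minimum, primary entries only, no intensity trend and leaving out genes not marked OK leave a tested member's difference as it was. B2M turned to 0.0201 with the length trend removed, the cause of which was not tested. Leaving out 1 shBCAT1 library gave differences from -0.40 to 0.0187 for HLA-B, from -0.0793 to 0.17 for TAPBP and from -0.0465 to 0.0874 for TAP1. Over all genes, limma called 0 higher and 14 lower. It called 1 higher with a pseudocount of 0.1 FPKM and 2 with the length trend removed, and 0 lower with no minimum or with entries kept apart, where more rows were tested, and 8 lower at a minimum of 5 FPKM. Genes with bounds apart numbered 50 higher and 163 lower, 16 higher at a minimum of 5 FPKM, where fewer genes were counted, and from 65 to 287 higher and 297 to 299 lower with 1 shBCAT1 library left out. Leaving out genes with any status other than OK, an alternative chosen after seeing the data, removes TAP2 and HLA-F. HLA-C and B2M each had a difference of -0.09 with quantile normalization. No paired analysis was possible because there is 1 control library, and its title carries no replicate number. The values of HLA-B, HLA-F, TAP1 and NLRC5 have bounds that match at most 29 fragments each, so their error is large. TAP2 bounds in the libraries labelled shBCAT1 1 and 2 match 5.83 and 3.91 fragments, against 42.3 in the control. Much of that width lies in NM_000544, marked LOWDATA, with bounds of 0 to 2.08 and 0 to 2.49 FPKM there. NM_018833 had narrower bounds, 1.04 to 1.95 and 0.802 to 1.63. The low numbers therefore do not give how many TAP2 fragments were counted.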
